A study of Mus musculus
Mus spretus with 18 samples.

Results

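The genes described here encode factors that act at the 5′ splice site, the start of an intron. They are Snrnp70, Snrpa and Snrpc, which encode the proteins specific to the U1 small nuclear ribonucleoprotein (snRNP), Luc7l, Luc7l2 and Luc7l3, which encode the mammalian relatives of the yeast U1 protein Luc7, and Tia1 and Tial1, which encode a pair of related RNA-binding proteins. The genes were chosen by name, and 8 of 8 were found by symbol among the 38924 genes of the expression table. They hold 91 of the 125200 skipped exon (SE) events of the series, which lie on 60 exons, and 6 retained intron (RI) events.

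The U1 snRNP pairs with the 5′ splice site through its RNA in the first step of spliceosome assembly. Snrnp70 and Snrpa proteins bind stem loops of U1 RNA, and the Snrpc protein steadies the pairing between U1 RNA and the intron. Luc7-like proteins associate with U1 and affect which 5′ splice sites it uses, and Tia1 and Tial1 bind uridine-rich sequence just inside the intron and help to recruit U1 to weak sites. Many splicing factors, Tia1 and Tial1 among them, are themselves alternatively spliced.

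The RNA-seq libraries came from F1 hybrids (C57BL/6J x SPRET/EiJ), in which each gene is read from an allele of the laboratory strain C57BL/6J and an allele of SPRET/EiJ, an inbred strain of Mus spretus. Spleen, liver, lung, heart, kidney and cerebral cortex were taken from female animals aged 8 weeks, and embryonic stem cells (ESC) came from separate clones, with 2 libraries in each of these 7 groups. The organs came from the same pair of animals, so the 12 organ libraries are not independent, and the liver data were carried over from an earlier study. A fibroblast line of the same cross was given 0.1 µM pladienolide B, which binds the SF3B complex of the U2 snRNP, or its solvent DMSO for 4 h, with 2 libraries each, so the spread between these libraries is that of cultures of a single line, and p-values measure only the spread between the libraries of a group. The strain labels of the liver libraries read C57BL/7J x SPRET/EiJ and C57BL/8J x SPRET/EiJ, and these libraries were used as liver of the same cross.

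Junction reads over SE events summed to between 46558287 and 129496306 per library in the tissues and to between 129067054 and 151755602 in the fibroblasts. Of 31 marker genes of the labelled tissues, 29 had their highest mean level in the group they mark; Dcn was highest in heart and Thy1 in cortex, although both were listed for fibroblasts. The 10 most abundant genes took 25.5% and 28.1% of the summed transcript abundance in the liver libraries and 8.01% and 8.62% in the ESC libraries. Abundance is given as TPM, a unit corrected for gene length and scaled to the same sum in every library, so differences in TPM were also computed under 2 other scalings. Median centring sets the median log2 level of all genes tested to the same value in every library, and median-ratio scaling divides each library by its median ratio to the geometric mean of the libraries, over genes at 1 TPM or more in all of them. All 3 scalings, below, are TPM and these. In bulk tissue, fewer cells of a type and less RNA per cell cannot be told apart.

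All 8 genes were expressed in all 18 libraries, and their lowest levels among the tissues lay in liver, except for Luc7l2, which was lowest in heart. Luc7l, Luc7l2, Luc7l3, Tia1 and Tial1 were highest in cortex, Snrpa and Snrpc in ESC, and Snrnp70 in spleen. The ratio of the highest to the lowest tissue mean ran from 3.60 for Luc7l2 to 24.1 for Tia1. The F test of any difference between tissues called 8 of 8 genes (limma, adjusted p from 2.92e-09 for Luc7l to 1.90e-07 for Snrpa), against 99.5% of the 21925 genes tested, so the calls themselves do not set these genes apart.

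Snrnp70 (chr7:45376454-45395742, minus strand, GRCm38) encodes a protein that carries some of the contacts of U1 with other splicing factors. Its transcript was the most abundant of the 8 in each of the 18 libraries. Its level per length was 597 and 469 TPM in the spleen libraries, 424 and 563 in ESC, 393.5 and 393 in cortex, 382 and 363 in lung, 191 and 189.5 in kidney, 162 and 153 in heart, and 75.4 and 71.4 in liver. The spleen and ESC ranges overlapped, and all other neighbours in this order did not. Snrpa (chr7:27187006-27196271, minus strand), whose product binds the second stem loop of U1 RNA, was at 185 and 241 TPM in ESC, 75.3 and 81.1 in spleen, 61.1 and 68.7 in cortex, 50.9 and 53.4 in lung, 40.1 and 41.6 in kidney, 36.7 and 35.2 in heart, and 24.8 and 18.2 in liver. No neighbours overlapped in this order, and the ESC libraries stood 9.90-fold above the liver libraries on average.

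Snrpc (chr17:27840028-27851968, plus strand) was the least abundant of the U1-specific transcripts in every library. It was at 33.5 and 33.2 TPM in ESC, 13.8 and 13.3 in spleen, 9.03 and 8.97 in lung, 6.76 and 6.33 in heart, 5.55 and 5.87 in cortex, 4.81 and 5.22 in kidney, and 3.25 and 3.08 in liver. Its place in cortex differed from those of the other 7 genes, all of which were among their 3 highest tissues there, whereas Snrpc was the fifth of 7. The ratio of Snrpc to Snrnp70 within a library was 0.0141 and 0.0149 in cortex and 0.0790 and 0.0590 in ESC, its lowest and highest among the tissues, and such a ratio does not depend on the scaling of the library.

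Among the Luc7-like genes, Luc7l (chr17:26252899-26285510, plus strand) was at 68.5 and 70.4 TPM in cortex, 56.8 and 51.3 in ESC, 48.3 and 42.4 in spleen, 26.7 and 25.4 in lung, 20.6 and 20.7 in kidney, 12.4 and 13.6 in heart, and 8.99 and 8.58 in liver. Luc7l2 (chr6:38551334-38609953, plus strand) was at 83.7 and 75.2 TPM in cortex, 64.6 and 55.8 in spleen, 49.0 and 50.8 in ESC, 45.4 and 41.6 in lung, 28.95 and 27.4 in kidney, 27.3 and 25.1 in liver, and 21.7 and 22.4 in heart. Luc7l3 (chr11:94291073-94322329, minus strand) was at 125.8 and 111 TPM in cortex, 93.7 and 83.9 in spleen, 51.9 and 71.7 in ESC, 56.7 and 55.6 in lung, 33.7 and 32.7 in kidney, 19.5 and 22.0 in heart, and 16.0 and 14.5 in liver. The order of tissues was therefore close to the same for the 3 paralogs, with ESC and lung overlapping for Luc7l3 and no other overlap between neighbours. Their shares of the summed TPM of the family differed more: Luc7l2 took 52.3% and 52.1% in liver but 29.2% to 40.5% in the other 12 tissue libraries, and Luc7l took 17.2% and 17.8% in liver but 36.0% and 29.5% in ESC. Reads that fit more than 1 of these paralogs could be lost or split in the authors' counting, and how much was not tested.

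Tia1 (chr6:86404203-86433405, plus strand) varied most between tissues, at 39.7 and 36.5 TPM in cortex, 14.9 and 12.7 in spleen, 11.96 and 7.48 in ESC, 7.26 and 6.98 in lung, 5.18 and 5.04 in kidney, 4.30 and 5.01 in heart, and 1.61 and 1.54 in liver. Its paralog Tial1 (chr7:128439772-128461726, minus strand) was at 91.8 and 84.3 TPM in cortex, 56.5 and 53.9 in spleen, 43.5 and 39.2 in ESC, 35.8 and 35.1 in lung, 25.9 and 27.1 in kidney, 20.9 and 22.3 in heart, and 20.8 and 18.1 in liver. Neighbours did not overlap in either order, and the order of the tissues was the same for both genes. The ratio of Tia1 to Tial1 within a library was 0.433 in both cortex libraries, 0.0776 and 0.0853 in liver, and between 0.186 and 0.275 in the remaining tissue libraries, against 0.885 and 0.913 in the DMSO fibroblasts.

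**Figure D1:**
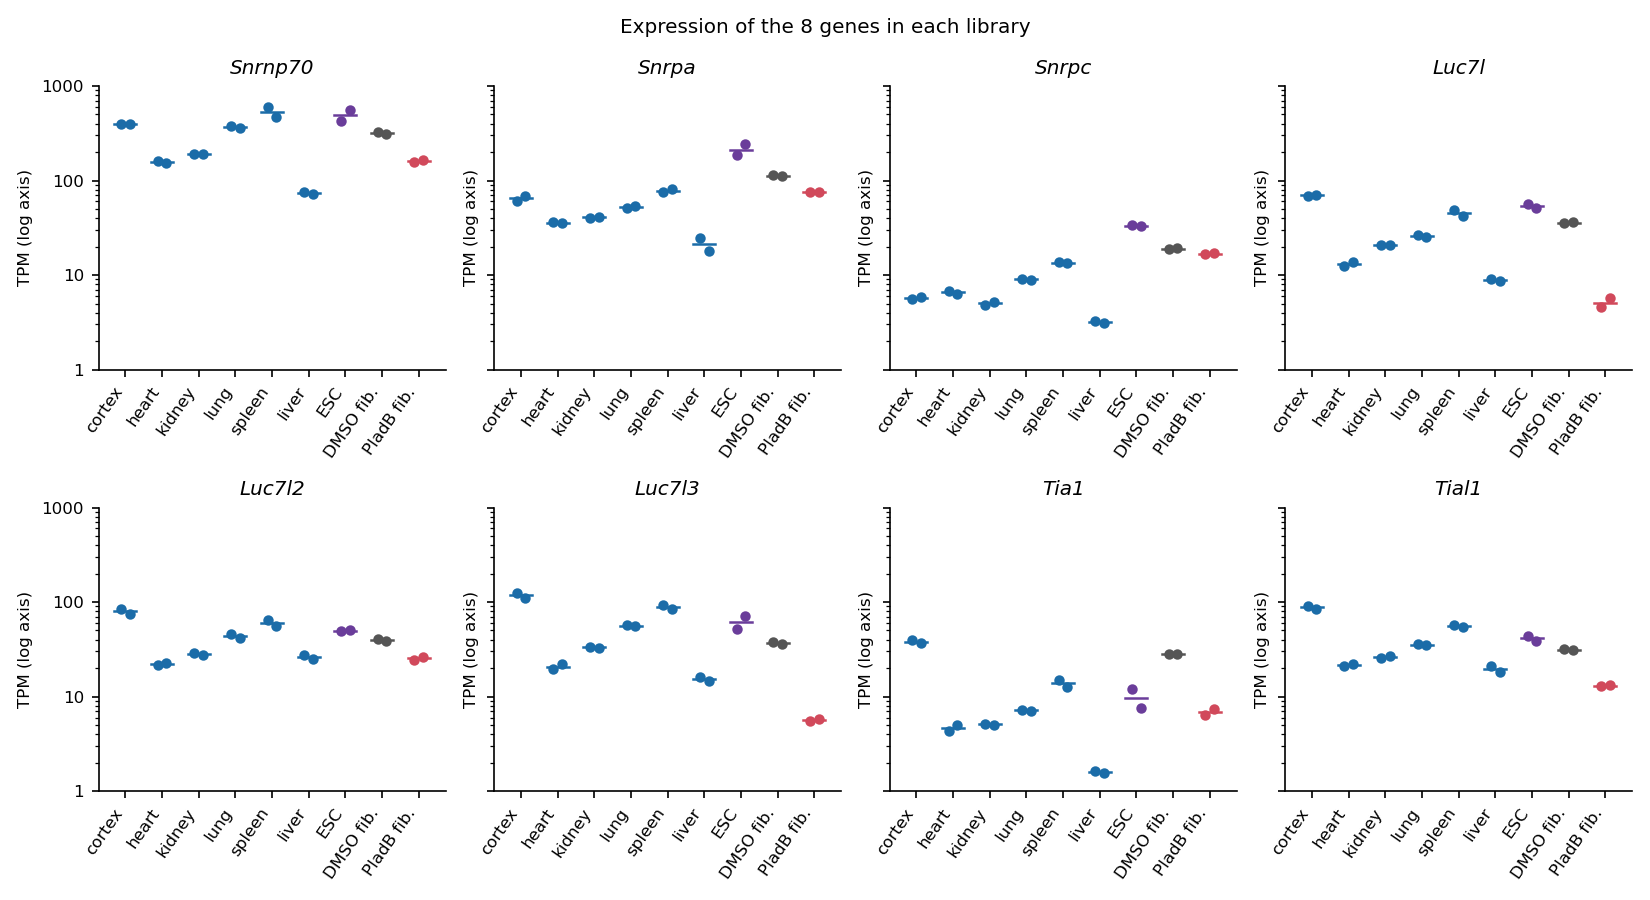
Expression of the 8 genes in TPM (log axis shared by all panels), with a point for each library, a line at the mean, blue for organs, purple for ESC, grey for DMSO fibroblasts and red for pladienolide B fibroblasts. The liver points are the lowest of the tissues in each panel except that of Luc7l2, where heart is lowest, and the red points of Luc7l, Luc7l3 and Tia1 lie farthest below the grey ones.

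Each tissue was then tested against the mean of the other 6 on the log2(TPM + 0.1) scale. In ESC, 8 genes were called higher and none lower, against 48.6% of all genes called higher and 34.4% lower, and 4 of them (Snrpc, Snrpa, Luc7l and Snrnp70) were higher under all 3 scalings. Snrpc stood 2.35 ± 0.08 (log2, SE) above the other tissues (adjusted p = 2.04e-09) and Snrpa 2.23 ± 0.12 (adjusted p = 5.95e-08). The other 4 changed direction with the scaling: Luc7l2, Luc7l3, Tia1 and Tial1 were at 0.36, 0.51, 0.38 and 0.23 in TPM and at -0.29, -0.15, -0.27 and -0.43 under median-ratio scaling. The median over all genes tested was 0.34 in TPM and -0.26 under median-ratio scaling. Tia1 and Tial1 differed between the ESC clones, and without ESC replicate 1 neither was called (Tia1 0.04, adjusted p = 0.736; Tial1 0.15, adjusted p = 0.111). Without ESC replicate 2 Tia1 was at 0.71 and Luc7l3 at 0.28, both still called, and the Tia1 call was also lost without 10 of the 12 organ libraries, with adjusted p between 0.0515 and 0.0626.

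In cortex, 6 of the 8 genes were called higher (50.4% of all genes), Snrpc was called lower (31.1% of all genes) and Snrpa was not called (0.24, adjusted p = 0.0847; -0.65 and called lower after median centring). Tia1 stood 2.71 ± 0.15 (log2, SE) above the other tissues, Luc7l3 1.62 ± 0.11, Luc7l 1.59 ± 0.07, Tial1 1.50 ± 0.07 and Luc7l2 1.14 ± 0.07, and these 5 were higher under all 3 scalings. Snrpc was lower under all 3, by between 0.60 and 1.49 on the log2 scale. Snrnp70 was at 0.69 in TPM (adjusted p = 0.000199) and at -0.20 after median centring, where it was not called. The Luc7-like and Tia genes were thus the ones that kept their cortex call, and none of the U1-specific genes did so in that direction.

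In spleen, 8 genes were called higher and none lower, against 43.8% and 34.2% of all genes, from 0.56 for Snrpa to 1.19 for Snrnp70, and 6 of them under all 3 scalings; Snrpa and Luc7l2 lost the call. In lung, Snrnp70 (0.60, adjusted p = 0.000732) and Luc7l3 (0.37, adjusted p = 0.0128) were called higher, against 41.8% of all genes, and neither under all 3 scalings, with Luc7l3 at -0.18 after median centring. After that centring the other 6 genes were called lower in lung, from -0.39 for Snrpc to -0.67 for Snrpa, against 49.1% of all genes and a median over all genes of -0.38. Without lung replicate 1 or 2 the adjusted p of Luc7l3 in lung was 0.0877 or 0.0686. The median of the 8 genes in lung was 0.05 on the log2 scale in TPM.

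In kidney, 8 genes were called lower, against 37.1% of all genes, from -0.45 for Luc7l to -0.81 for Snrpc. All 8 kept that call under all 3 scalings, which held for no other tissue. The median over all genes in kidney was -0.13 in TPM, -0.29 after median centring and -0.16 under median-ratio scaling. It thus moved less with the scaling than in liver, where it was -1.52, 0.26 and -0.57. The share of all genes that kept a call under all 3 scalings was not computed. In heart, 8 genes were called lower, against 60.0% of all genes, from -0.37 for Snrpc to -1.31 for Luc7l3, with a median over all genes of -0.72. Luc7l3, Luc7l, Luc7l2 and Tial1 kept the heart call under all 3 scalings, and Snrpc was at 0.29 after median centring and 0.071 under median-ratio scaling.

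In liver, 8 genes were called lower and none higher, against 80.5% and 10.4% of all genes, and the median over all genes was -1.52. Tia1 (-2.55 ± 0.15, log2, SE) and Snrnp70 (-2.14 ± 0.11) were lower under all 3 scalings. Luc7l2 (-0.72) and Tial1 (-1.04) lay above the median of all genes and were called higher under median centring (1.06 and 0.74) and median-ratio scaling (0.54 and 0.22). Snrpa and Snrpc were at 0.15 and 0.21 after median centring, and Luc7l and Luc7l3 at -0.10 and -0.04. Luc7l2 and Tial1 were also the genes whose share of their own family was higher in liver than in any other tissue, which does not depend on the scaling.

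Of 19 other genes of the pathway (8 of the Sm ring, which the U1, U2, U4 and U5 snRNPs share, 8 that associate with U1, the U2 paralogs Snrpa1 and Snrpb2, and Elavl1), 18 were called higher in ESC and none lower, 17 higher and 1 lower in spleen, and 10 higher and 6 lower in cortex. None were higher and 19 lower in liver, none higher and 14 lower in kidney, 1 higher and 15 lower in heart, and 2 higher and 4 lower in lung. Of all genes, 48.6% were called higher in ESC, 43.8% in spleen and 50.4% in cortex, where 31.1% were lower. The shares of all genes called lower were 80.5% in liver, 37.1% in kidney and 60.0% in heart. In lung 41.8% of all genes were higher and 28.5% lower. Under the other scalings the 8 Sm genes were called higher in ESC each time, against 41.3% of all genes after median centring and 35.9% under median-ratio scaling. In cortex 6 Sm genes were lower and 1 higher each time, against 53.1% lower and 30.5% higher of all genes after centring and 39.0% and 41.6% under median-ratio scaling. In liver the 19 genes split into 8 higher and 3 lower after median centring (43.7% and 27.0% of all genes) and 2 higher and 11 lower under median-ratio scaling (26.3% and 53.9%), near the split of all genes. Among the largest differences were those of Snrpn, which replaces Snrpb in the Sm ring in neurons, at 5.36 in cortex (791 and 824 TPM against 3.09 and 2.17 in spleen) and of Snrpf, an Sm ring protein, at -2.22 in liver (17.4 and 16.0 TPM). In the Sm ring 6 genes thus lay on the same side as Snrpc in cortex, while 7 of the 8 U1-associated genes were called higher and none lower there in TPM, 4 higher and 3 lower after median centring, and 6 higher and 1 lower under median-ratio scaling.

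The genes with the most similar pattern to each member were named by Pearson's r over the 7 tissue means of log2(TPM + 0.1), among 10426 genes at 1 TPM or more in every tissue mean. They were Casc3 (r = 0.998) for Snrnp70, Bcas2 (0.999) for Snrpa, Eif3g (0.997) for Snrpc, Ccnt2 (0.996) for Luc7l, Asb3 (0.984) for Luc7l2, Tbce for Luc7l3 (0.996) and Tial1 (0.984), and Meaf6 (0.997) for Tia1. Tial1 itself was the second in the order for Luc7l2 (r = 0.973). These values share libraries and the TPM scale and rest on 7 points, and among so many genes some will lie this close.

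Of the 91 SE events, 89 on 60 exons had 20 or more junction reads in both libraries of at least 1 group, and 27 events on 19 exons had a mean percent spliced in (PSI, given as a fraction) between 0.1 and 0.9 in a group. None of these 27 lay in a U1-specific gene: the 4, 3 and 4 events of Snrnp70, Snrpa and Snrpc had mean PSI of 0.995 or more, apart from a 123-bp exon of Snrpa with mean PSI between 0.0011 and 0.0064 in the tissues. Luc7l2 held 31 events on 9 exons, 14 of them between 0.1 and 0.9, and Luc7l, Luc7l3, Tia1 and Tial1 held 2, 4, 3 and 4 such events. Which exons are coding was not analysed here. Events of a gene share junction reads and are not independent, and an exon is counted in several events where it is spliced to different neighbours.

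Of 54 events tested between tissues on 39 exons, 12 on 10 exons were called (adjusted p under 0.05 and a largest difference between tissue means, the switch score, of 0.1 or more), in 5 genes, against 8.83% of all 47963 events. All 12 were in Luc7-like and Tia genes. Of the U1-specific genes, only a 65-bp exon of Snrnp70 and the 123-bp exon of Snrpa were tested. Their tissue means lay between 0.9992 and 0.9996 and between 0.0011 and 0.0064, so a call there was hardly possible. Unadjusted p was under 0.05 for 25 events (46.3%, against 20.6% of all events). The switch score was 0.1 or more for 19, and the share of all events at that score was not computed.

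The 71-bp exon of Luc7l (chr17:26253974-26254044, plus strand, mm10) had the largest switch score, 0.62. Its PSI was 0.788 and 0.814 in heart, 0.392 in both lung libraries, 0.438 and 0.319 in spleen, 0.376 and 0.332 in kidney, 0.281 and 0.309 in ESC, 0.328 and 0.230 in cortex, and 0.149 and 0.210 in liver (adjusted p = 1.43e-05). Both heart libraries lay far above every other library, and the DMSO fibroblasts (0.242 and 0.241) were near cortex. Heart and liver, at the ends of the order for this exon, were the tissues with the lowest Luc7l transcript levels.

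In Luc7l2, 6 called events lay on 4 exons. With limma on log2 read ratios 5 of these 6 calls were lost, all but that of the 71-bp exon between the exons ending at 38551908 and starting at 38570510, with adjusted p between 0.0857 and 0.732. An 84-bp exon (chr6:38554980-38555063) that precedes the 71-bp exon had PSI from 0.392 and 0.514 in heart to 1.00 and 0.872 in liver, a score of 0.48 (adjusted p = 0.000951); cortex was near heart (0.50 and 0.550), while kidney (0.811 and 0.904) and ESC (0.789 and 0.844) were near liver. Spliced instead to the exon at 38570510, the same 84-bp exon had PSI between 0.113 in a heart library and 0.263 in an ESC library (score 0.13, adjusted p = 0.00862). Its PSI thus differed with the downstream exon of the event. The events differ both in the skipping junction and in the inclusion junction to that exon, and the part of each was not tested.

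The 71-bp exon of Luc7l2 (chr6:38568847-38568917) had PSI of 0.382 and 0.371 in liver, 0.339 and 0.351 in kidney, 0.272 and 0.224 in spleen, 0.189 and 0.232 in cortex, 0.196 and 0.189 in lung, 0.143 and 0.160 in ESC, and 0.171 and 0.123 in heart (score 0.23, adjusted p = 9.85e-05). Liver and heart were again at the ends of the order, but the other way round from the exon of the same length in Luc7l. Counted after the 84-bp exon, the same exon ran from 0.839 and 0.883 in spleen to 0.558 and 0.489 in cortex (score 0.34, adjusted p = 0.00748), with the ESC clones apart at 0.441 and 0.715. A 68-bp exon just upstream (chr6:38565655-38565722) was called between the exon ending at 38551908 and the 71-bp exon. There its PSI was 0.941 and 0.977 in kidney and 0.705 and 0.648 in cortex (score 0.28, adjusted p = 0.0102). This call was lost without cortex replicate 1 or 2, where the score was 0.31 or 0.25. Counted after a 101-bp exon, the 68-bp exon was at 0.963 and 0.976 in cortex and was not called (adjusted p = 0.192). Between the exons ending at 38551908 and starting at 38570510 it had mean PSI between 0.0135 and 0.0423 in 5 tissues (adjusted p = 0.371).

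The 30-bp exon of Luc7l2 (chr6:38598785-38598814), with 2099 to 7309 reads in each tissue library, was included in more than 50% of transcripts in every tissue. Its PSI was 0.646 and 0.645 in lung, 0.623 and 0.598 in kidney, 0.586 and 0.605 in heart, 0.597 and 0.588 in spleen, 0.573 and 0.5997 in liver, 0.558 and 0.534 in cortex, and 0.552 and 0.523 in ESC (score 0.11, adjusted p = 0.000513; 0.732 with limma on log2 read ratios). The score was 0.0996, just under the limit, without ESC replicate 2. Luc7l has exons of 71, 95, 99 and 30 bp in the same order along the gene as Luc7l2. Its own 30-bp exon, listed in the tables of spleen and cortex among the tissues, had mean PSI of 0.9995 and 0.9992 there. The 30-bp exons of the paralogs thus differed in inclusion, and whether they correspond in sequence was not tested.

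In Luc7l3, a 67-bp exon (chr11:94309625-94309691) was called, with PSI from 0.966 and 0.956 in cortex to 0.884 and 0.827 in heart (score 0.11, adjusted p = 0.00516; 0.0731 with limma on log2 read ratios). Without cortex replicate 1 its adjusted p was 0.0718, and without heart replicate 2 its score was 0.0768. An alternative exon of 79 or 66 bp (chr11:94292394-94292472, or from 94292407) was not called, with mean PSI of the longer form in the 7 tissues between 0.231 in kidney and 0.496 in spleen (adjusted p = 0.110). The shorter form had mean PSI between 0.0529 in kidney and 0.363 in ESC over 6 tissues (adjusted p = 0.0692), with the heart libraries apart at 0.451 and 0.0754. In DMSO fibroblasts this exon was nearly skipped, with PSI of 0.0331 and 0.00856 for the longer form.

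In Tia1, a 66-bp exon (chr6:86423606-86423671) had PSI of 0.496 and 0.510 in kidney, 0.491 and 0.350 in ESC, 0.426 and 0.359 in cortex, 0.425 and 0.328 in spleen, 0.294 and 0.427 in liver, 0.319 and 0.294 in lung, and 0.0825 and 0.110 in heart (score 0.41, adjusted p = 0.000939). Both heart libraries lay below every other tissue library. A 33-bp exon (chr6:86419101-86419133) had PSI from 0.674 and 0.806 in lung to 0.511 and 0.446 in heart (score 0.26, adjusted p = 0.0424), and this call was lost in 11 of 14 fits that left out a library, with adjusted p between 0.0722 and 0.220, and with limma on log2 read ratios (0.226) or a prior without depth trend (0.0590); it held without lung replicate 1, ESC replicate 1 or ESC replicate 2. A 119-bp exon in the same intron (chr6:86419694-86419812) missed the threshold, with mean PSI from 0.0268 in heart to 0.208 in spleen (adjusted p = 0.0512). Heart thus had the lowest mean PSI of these 3 exons of Tia1.

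In Tial1, exons of 68 and 377 bp (chr7:128446731-128446798 and chr7:128446731-128447107) share an edge and their skipping reads. The 68-bp form had PSI of 0.466 and 0.414 in cortex, 0.425 and 0.422 in lung, 0.299 and 0.433 in ESC, 0.393 and 0.287 in spleen, 0.237 and 0.290 in heart, 0.125 and 0.136 in kidney, and 0.109 and 0.0772 in liver (score 0.35, adjusted p = 3.21e-06). Kidney and liver lay below all other tissue libraries, near the DMSO fibroblasts (0.0964 and 0.0792). The 377-bp form followed a like order, from 0.360 and 0.606 in ESC to 0.0970 and 0.0652 in liver (score 0.40, adjusted p = 2.36e-05).

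Among the events not called, a 47-bp exon of Luc7l2 (chr6:38571042-38571088) passed the p threshold (adjusted p = 0.000156) but not the score, with mean PSI from 0.0285 in heart to 0.101 in ESC. A 60-bp exon of Tial1 (chr7:128458597-128458656) had mean PSI between 0.0305 in heart and 0.110 in liver (adjusted p = 0.103). The 101-bp exon of Luc7l2 (chr6:38559204-38559304), between exons ending at 38558075 and starting at 38570510, was at 0.445 and 0.982 in the ESC clones and between 0.932 and 1.00 in kidney, lung and spleen (adjusted p = 0.488). Between the exon ending at 38551908 and the 71-bp exon it had mean PSI between 0.0635 in cortex and 0.280 in ESC (adjusted p = 0.229). The 71-bp exon of Luc7l2 after the 101-bp exon ranged from 0.803 in liver to 0.989 in heart (adjusted p = 0.0875), after the exon ending at 38558075 it was at 0.651 and 0.937 in cortex, where alone it had 20 reads, and the 68-bp exon after the 101-bp exon from 0.839 in heart to 0.985 in kidney (adjusted p = 0.192).

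**Figure D2:**
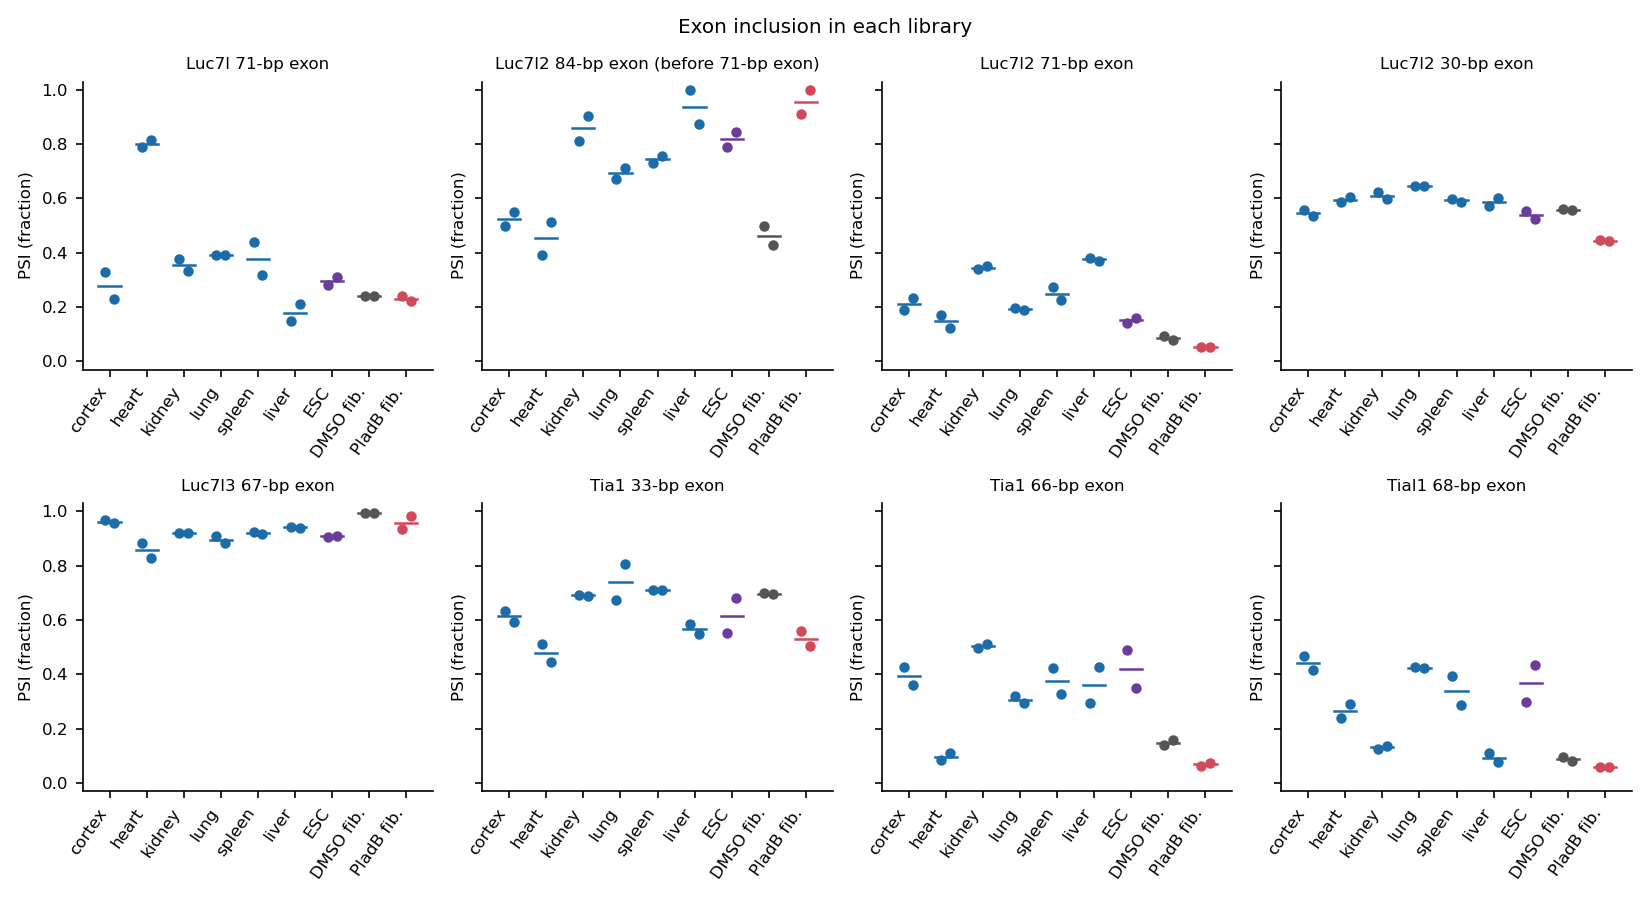
Percent spliced in (PSI, as a fraction from 0 to 1) of 8 exons, with a point for each library, a line at the mean, blue for organs, purple for ESC, grey for DMSO fibroblasts and red for pladienolide B fibroblasts. Heart is highest for the 71-bp exon of Luc7l (0.788 and 0.814) and lowest for the 66-bp exon of Tia1 (0.0825 and 0.110), and the 30-bp exon of Luc7l2 stays between 0.523 and 0.646 in all tissues.

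In fibroblasts, pladienolide B was compared with DMSO to ask how these factors respond when U2 snRNP function is inhibited. In TPM, 8 of 8 genes were called lower, against 73.4% of the 13577 genes tested called lower and 15.6% higher, and the median over all genes was -1.15 on the log2 scale. Luc7l, Luc7l3 and Tia1 fell most and did so under all 3 scalings. The other 5 genes were lower in TPM, but their direction depended on the scaling.

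Luc7l was at 35.1 and 36.1 TPM after DMSO and at 4.54 and 5.69 after pladienolide B, and fell by 2.78 ± 0.12 (log2, SE; adjusted p = 1.46e-05), or 6.89-fold. Luc7l3 went from 37.4 and 35.9 TPM to 5.49 and 5.79, and fell by 2.68 ± 0.06 (adjusted p = 3.81e-06). Tia1 went from 28.0 and 28.1 TPM to 6.44 and 7.37, and fell by 2.01 ± 0.08 (adjusted p = 1.22e-05). These changes lay at percentiles 12.4, 14.6 and 29.1 of all genes tested, so genes with larger decreases were not rare. Under median-ratio scaling, where the median over all genes was -0.15, they were -1.77, -1.67 and -0.995.

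Tial1 was at 31.6 and 30.8 TPM after DMSO and 12.9 and 13.1 after pladienolide B (-1.26 ± 0.05, log2, SE), near the median of all genes, and it was at -0.24 under median-ratio scaling but 0.19 after median centring. Luc7l2 was at 40.3 and 38.9 TPM and then at 24.6 and 26.0 (-0.65 ± 0.05), and it was called higher under the other scalings (0.37 and 0.80). Within the Luc7-like family its share of the summed TPM went from 35.7% and 35.1% to 71.03% and 69.3%, above that in any tissue library. The ratio of Luc7l to Luc7l2 went from 0.872 and 0.928 to 0.185 and 0.219, that of Luc7l3 to Luc7l2 from 0.929 and 0.922 to 0.223 and 0.223, and that of Tia1 to Tial1 from 0.885 and 0.913 to 0.501 and 0.562.

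Of the U1-specific genes, Snrnp70 was at 323 and 309 TPM after DMSO and at 155 and 165 after pladienolide B (-0.98 ± 0.05, log2, SE; 0.041 and not called under median-ratio scaling, 0.47 after median centring). Snrpa went from 115 and 111 TPM to 76.0 and 75.6 (-0.57 ± 0.04), with 0.45 and 0.87 under the other scalings. Snrpc, at 18.8 and 19.3 TPM and then at 16.5 and 17.3, differed least (-0.17 ± 0.05, adjusted p = 0.0284; 0.85 and 1.28 under the other scalings), and its call in TPM was lost without DMSO replicate 1, DMSO replicate 2 or pladienolide B replicate 1 (adjusted p = 0.102, 0.174 and 0.0610). Under median-ratio scaling 3 of the 8 genes were called higher and 4 lower, against 40.6% and 47.9% of all genes. Relative to Snrnp70, Snrpa went from 0.356 and 0.360 to 0.490 and 0.458, and Snrpc from 0.0581 and 0.0624 to 0.106 and 0.105.

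Of the 19 other pathway genes, 5 were called higher in TPM, 10 lower and 4 not called, against 15.6% higher and 73.4% lower of all genes. The split was 14 higher and 3 lower after median centring (51.4% and 36.2% of all genes) and 11 higher and 6 lower under median-ratio scaling (40.6% and 47.9%). The 8 Sm ring genes split into 5 higher and 1 lower in TPM and were all called higher under both other scalings, while the 8 U1-associated genes were all called lower in TPM, but 3 higher and 3 lower after median centring and 1 higher and 5 lower under median-ratio scaling. The largest changes were those of Nkap (-2.68), Rbm25 (-2.64) and Prpf39 (-2.08), all U1-associated, which stayed below 0 under the other scalings (-1.67, -1.63 and -1.07 under median-ratio scaling).

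**Figure D3:**
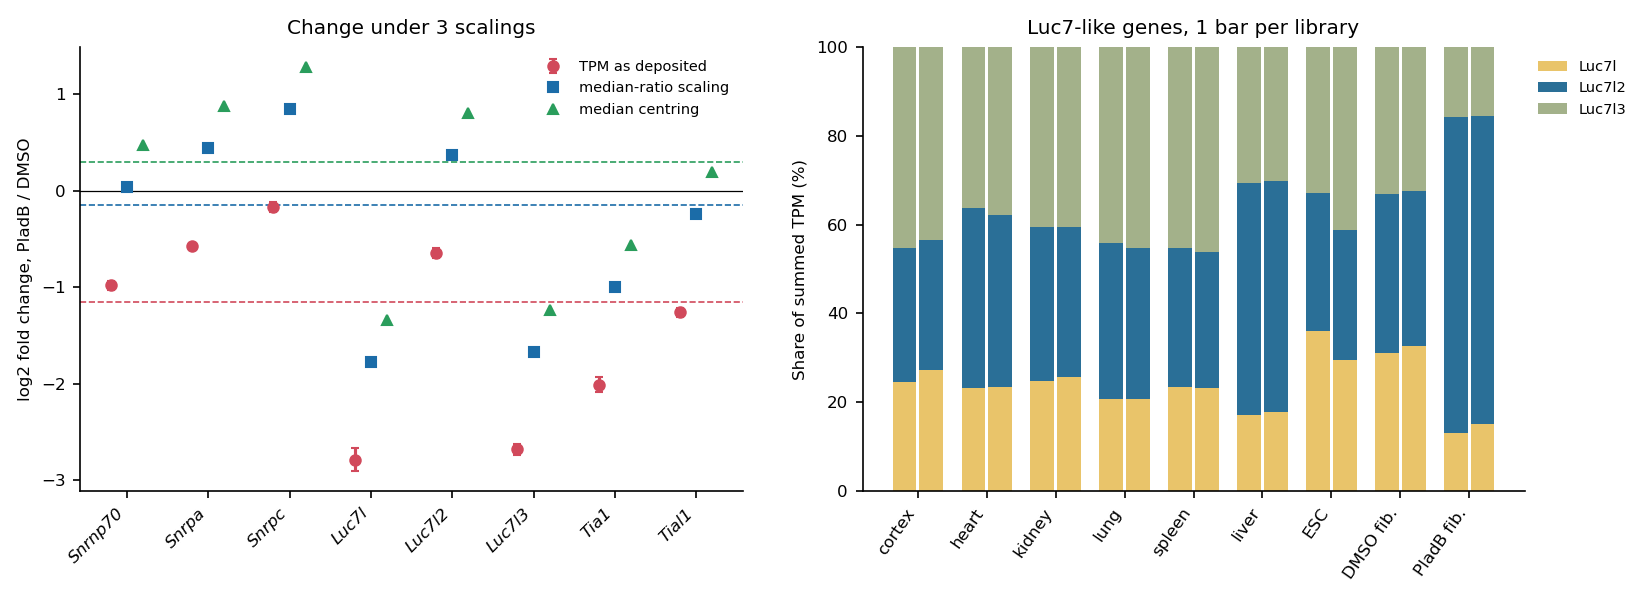
Left, log2 fold change of the 8 genes after pladienolide B against DMSO in TPM (circles, bars are SE) and under median-ratio scaling (squares) and median centring (triangles), with dashed lines of the same colours at the median of all genes tested. Right, share of each Luc7-like gene in their summed TPM, with a bar for each library; Luc7l2 takes 71.03% and 69.3% after pladienolide B against 35.7% and 35.1% after DMSO.

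Of 67 SE events tested in the fibroblasts on 53 exons, 8 events on 7 exons of 4 genes were called, against 7.29% of all 54535 events. In 7 of them inclusion was lower after pladienolide B (7.18% of all events) and in 1 it was higher (0.112%). Unadjusted p was under 0.05 for 27 events (40.3%, against 32.2% of all events).

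The 99-bp exon of Luc7l (chr17:26257926-26258024) had PSI of 1.00 and 1.00 after DMSO and 0.756 and 0.698 after pladienolide B (adjusted p = 0.00208, with 92 and 150 reads in the treated libraries). The 99-bp exon of Luc7l2, matched to it by length and order only, had mean PSI of 0.999 after DMSO and 0.997 after pladienolide B. It was not called (adjusted p = 0.325). The 71-bp exon of Luc7l, which varied most between tissues, was at 0.242 and 0.241 after DMSO and 0.242 and 0.221 after pladienolide B (adjusted p = 0.685), although the transcript level of the gene fell.

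In Luc7l2, the event called higher was the 84-bp exon counted before the 71-bp exon. It was at 0.498 and 0.428 after DMSO and 0.909 and 1.00 after pladienolide B (adjusted p = 0.0153), a level near that of liver. Counted before the exon at 38570510, on 361 to 438 reads, the same exon was mostly skipped. There it was at 0.0999 and 0.102 and then at 0.122 and 0.141, and was not called (adjusted p = 0.206). The 71-bp exon was lower after the 101-bp exon (1.00 and 1.00 against 0.780 and 0.560, adjusted p = 0.0425) and after the 68-bp exon (1.00 and 0.982 against 0.803 and 0.812, adjusted p = 0.0203), and the 68-bp exon before 38570510 was at 1.00 and 1.00 against 0.850 and 0.657 (adjusted p = 0.0253). These 4 called events share a stretch of the gene and some of their junction reads. Other events of these exons were not called. Between the exons ending at 38551908 and starting at 38570510, the 71-bp exon was at 0.0951 and 0.0805 and then at 0.0542 and 0.0518 (adjusted p = 0.115, 322 to 381 reads). After the 84-bp exon it was at 0.724 and 0.608 and then at 0.512 and 0.597 (adjusted p = 0.307). The 68-bp exon between the 101-bp and 71-bp exons was at 0.928 and 0.953 and then at 0.934 and 0.851 (adjusted p = 0.246). The 30-bp exon, farther downstream, was at 0.561 and 0.556 after DMSO and 0.446 and 0.442 after pladienolide B (adjusted p = 0.00395, 1781 to 3365 reads), below all tissue libraries.

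In Luc7l3, a 40-bp exon (chr11:94306186-94306225) was at 1.00 and 1.00 after DMSO and 0.941 and 0.784 after pladienolide B (adjusted p = 0.0312), with 21 and 39 reads in the treated libraries. The 33-bp exon of Tia1 was at 0.697 and 0.696 and then at 0.560 and 0.503 (adjusted p = 0.0163), and its 66-bp exon, at 0.140 and 0.157 and then 0.0611 and 0.0747, passed the p threshold (adjusted p = 0.0330) but not the difference of 0.1. No SE event of Tial1 was called; its 68-bp form was at 0.0964 and 0.0792 and then at 0.0571 and 0.0578 (adjusted p = 0.196). A 150-bp exon of Tial1 (chr7:128448621-128448770), counted on 20 to 50 reads, was at 1.00 and 1.00 and then at 0.913 and 0.667 (adjusted p = 0.108), and the U1-specific genes had no event that moved by 0.1.

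The number of calls after pladienolide B changed when a library was left out, in fits that take the spread of a lone library from the other group. Without pladienolide B replicate 1 or 2 none of the 8 events kept its call. The share of all events that kept a call in such fits is not given here. The lost calls therefore cannot set these exons apart from those of other genes. Without DMSO replicate 1, the 99-bp exon of Luc7l and the 30-bp exon of Luc7l2 were called, and without DMSO replicate 2 only the former of these 8. With limma on log2 read ratios and all libraries, the calls of the 84-bp exon of Luc7l2 (adjusted p = 0.0770), its 30-bp exon (0.161) and the 33-bp exon of Tia1 (0.0892) were lost, and with a prior without depth trend that of the 71-bp exon after the 101-bp exon (0.0526). The difference of the 40-bp exon of Luc7l3 was -0.14 with all libraries, -0.22 without treated replicate 1 and -0.06 without treated replicate 2, and that of the 68-bp exon of Luc7l2 was -0.25 with all and -0.15 without treated replicate 2.

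Of 6 RI events, 2 were called, both with lower retention after pladienolide B, against 38.1% of all 1802 RI events, of which 35.2% were called higher and 2.94% lower. An intron of Tia1 (chr6:86418933-86420323) had a retained fraction of 0.411 and 0.427 after DMSO and 0.0620 and 0.0909 after pladienolide B (adjusted p = 2.04e-06). This intron spans the 33-bp and 119-bp exons, and reads of its spliced junction are also the skipping reads of those events. The intron downstream of the 71-bp exon of Luc7l (chr17:26254045-26255030) was at 0.802 and 0.796 and then at 0.576 and 0.709 (adjusted p = 0.0427). Its call was lost without DMSO replicate 1, DMSO replicate 2 or treated replicate 1 (adjusted p = 0.154, 0.146 and 0.192), and without the last the difference was -0.09 in place of -0.16.

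The other 4 introns were not called. The Tial1 intron (chr7:128443947-128444280) was at 0.135 and 0.153 and then at 0.175 and 0.233, past the p threshold (adjusted p = 0.0155) with a difference of 0.06. Retention in Luc7l3 was at 0.700 and 0.680 and then at 0.601 and 0.653 (adjusted p = 0.315), in a second Tia1 intron at 0.670 and 0.689 and then at 0.529 and 0.702 (adjusted p = 0.688), and in Snrpc below 0.01 throughout. So 4 of these 6 introns, those of Tia1, Luc7l and Luc7l3, had a lower mean after the drug, but only 2 of them were called. Those of Tial1 and Snrpc had a higher mean. The share of all RI events with a lower mean was not computed.

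**Figure D4:**
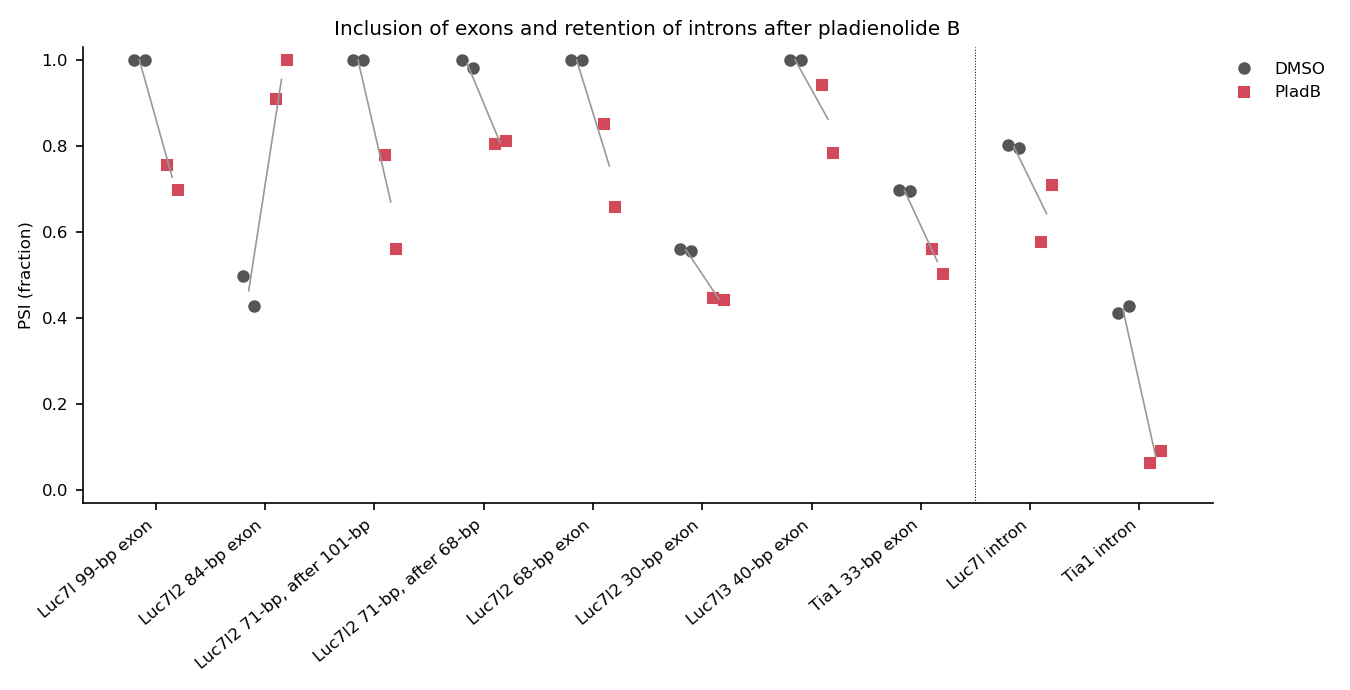
PSI (fraction) of the 8 exon events (left of the dotted line) and 2 introns (right) called after pladienolide B, with 2 DMSO libraries (grey circles) and 2 pladienolide B libraries (red squares) for each and a line between the means. The 84-bp exon of Luc7l2, counted before the 71-bp exon, is the only one that is higher after pladienolide B (0.909 and 1.00 against 0.498 and 0.428). The Tia1 intron has the lowest treated values (0.0620 and 0.0909).

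The alleles were compared within each group to ask whether the C57BL/6J and SPRET/EiJ copies of these genes are spliced differently in the same cells. With 20 or more reads on each allele in each library, 59 events on 42 exons of all 8 genes could be tested in at least 1 of the 9 groups, as 211 pairs of an event and a group. No pair was called by the quasi-binomial model, 13 (6.16%, against 11.3% over all events and groups) had an unadjusted p under 0.05, and limma on log2 read ratios also called none. The share of all events called was 1.89% after DMSO, 1.61% after pladienolide B, 0.0808% in ESC, 1.06% in liver, 1.15% in spleen, 1.64% in heart, 1.59% in lung, 1.51% in kidney and 1.48% in cortex, and 13 to 32 events of these genes were tested in a group.

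The median size of the allelic difference in PSI over the events of these genes was between 0.00502 in ESC and 0.0280 in liver, against between 0.00672 and 0.0136 over all events of a group. The largest difference of each group was in Luc7l2, Tia1 or Tial1. In cortex, the 71-bp exon of Luc7l2 after the 68-bp exon was at 0.842 and 0.795 on the C57BL/6J allele and 1.00 and 0.960 on the SPRET/EiJ allele (adjusted p = 0.318), so that the difference was larger than the gaps between replicates. In liver, the 71-bp exon of Luc7l2 after the 84-bp exon was at 1.00 and 0.912 on the C57BL/6J allele and 0.756 and 0.633 on the SPRET/EiJ allele (adjusted p = 0.452). In spleen, the 33-bp exon of Tia1 was at 0.837 and 0.824 on the C57BL/6J allele and 0.755 and 0.465 on the SPRET/EiJ allele, with 27 to 50 reads (adjusted p = 0.451), and the difference of 0.22 was 0.36 without replicate 1 and 0.08 without replicate 2. In DMSO fibroblasts, the 101-bp exon of Luc7l2 before the 71-bp exon was at 0.0874 and 0 on the C57BL/6J allele and 0.374 and 0.198 on the SPRET/EiJ allele, with 20 to 29 reads (adjusted p = 0.318).

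The well covered 30-bp exon of Luc7l2 had a lower PSI on the C57BL/6J allele in cortex (0.393 and 0.516 against 0.598 and 0.569, adjusted p = 0.378) and kidney (0.514 and 0.493 against 0.663 and 0.591, adjusted p = 0.350). The alleles did not overlap there, nor in heart (0.523 and 0.596 against 0.736 and 0.599, adjusted p = 0.528) or ESC (0.521 and 0.434 against 0.535 and 0.554, adjusted p = 0.818). They overlapped in the other 5 groups, as in liver (0.601 and 0.587 against 0.526 and 0.621, adjusted p = 0.788). How often the alleles of other events do not overlap was not computed. The smallest adjusted p of any of the 211 pairs was 0.164, for the 71-bp exon of Luc7l2 in DMSO fibroblasts (0.0542 and 0.0340 against 0.126 and 0.122). In ESC, the 377-bp form of the Tial1 exon was at 0.424 and 0.557 on the C57BL/6J allele and 0.260 and 0.425 on the SPRET/EiJ allele (adjusted p = 0.818).

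The difference between alleles was also tested against tissue and against treatment. Of 33 events tested between tissues none was called, against 0.0662% of all events, and none had an unadjusted p under 0.05, against 3.14%. Of 19 tested against treatment none was called, against 0.00749% of all events. An unadjusted p under 0.05 was found for 2 of the 19 (10.5%, against 4.70% of all events). These were the 67-bp exon of Luc7l3 and the 84-bp exon of Luc7l2 before 38570510 (adjusted p = 0.904 for both). The limma alternative called none in either test. No allelic difference was thus called for these events, which does not show that the alleles are spliced alike.

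**Figure D5:**
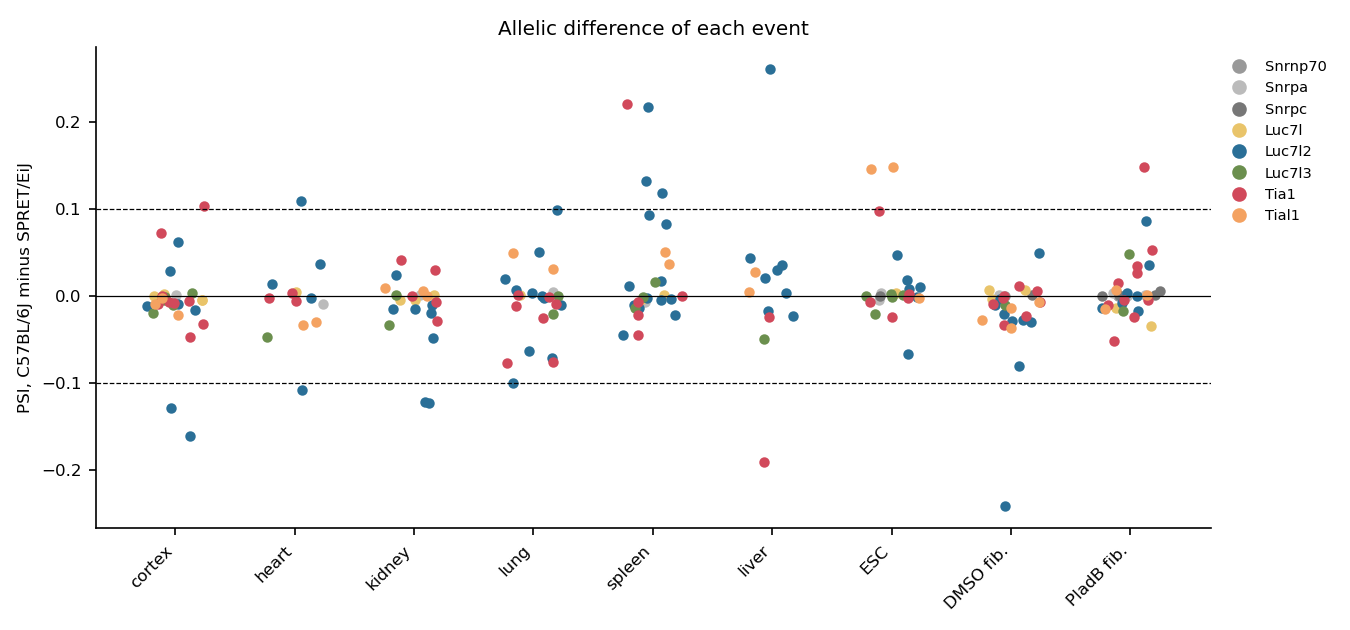
Difference in PSI between the C57BL/6J and SPRET/EiJ alleles (C57BL/6J minus SPRET/EiJ) for each of the 211 pairs of an event and a group, with a point for each pair coloured by gene and dashed lines at a difference of 0.1 either way. Most points lie near 0, the widest in cortex, spleen, liver and DMSO fibroblasts belong to Luc7l2 and Tia1, and none was called.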

How the data were processed

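RNA-seq of 18 libraries was used. The authors aligned reads with HISAT2 2.0.1 (per the labels) to C57BL/6J (mm10) and SPRET/EiJ genomes, assigned reads by edit distance, and moved SPRET/EiJ positions to mm10. The deposited junction read counts come from rMATS on Ensembl 74 and are not normalized, with both replicates in a list. The effective lengths deposited with them are scores written by rMATS. The deposited p-values, FDR and inclusion level differences are the authors' comparisons and were not used. The deposited TPM values were made by the authors from stranded featureCounts fragment counts, with fragments that overlap several genes divided among them.

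From the counts, divided by effective length, PSI was computed for events with at least 20 reads per library, and per allele for allelic tests. Autosomal events only were tested. Allelic events had to lie within 0.1 of the PSI of all reads in each group; the study also filters on an FDR, not used here. Events were tested by a quasi-binomial logistic model (dispersion at least 1, moderated by squeezeVar of limma 3.58.1 in R 4.3.3 toward a prior that follows read depth), F test and Benjamini-Hochberg adjustment over all events of a table, with calls at an adjusted p under 0.05 and a difference of 0.1 or more. TPM was tested by limma with trend on log2(TPM + 0.1), for genes at 1 TPM or more in at least 2 libraries, adjusted over all genes. Python 3.11.15 did the rest. The tests were checked on simulated data.

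Alternatives were a pseudocount of 1, no filter on low TPM, centring each library on its median, minima of 10 and 50 reads, limma on log2 read ratios (offset 0.5), a prior without depth trend, no allelic filter, a replicate block, and leaving out each library. Median-ratio scaling was added after seeing the data. Values are given for all 8 genes and for events called or with a mean PSI between 0.1 and 0.9. The members and gene lists were chosen with earlier results of these data known. Same-numbered libraries were not paired: the correlation of their deviations was between -0.130 and 0.117 over 21 pairs of tissues and 0.00277 for the fibroblasts. The alleles of a library share that library (r between 0.0280 and 0.664). Allelic reads of imprinted genes lay in the known parental direction in 46 of 46 pairs of a gene and a group. Gene spans are from RefSeq (GRCm38.p6). The values of 1 gene of the pathway list are not reported here.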

Additional observations from a re-analysis of the deposited data

How the results depend on the processing

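The 8 genes differed between tissues under every expression alternative run, and 7 or 8 of 8 were called after pladienolide B. Directions followed the scaling. Median centring gave, in tissues, -0.20 for Snrnp70 in cortex, 0.29 for Snrpc in heart, -0.18 for Luc7l3 in lung, 0.15, 0.21, 1.06 and 0.74 for Snrpa, Snrpc, Luc7l2 and Tial1 in liver, and -0.13 for Tial1 in ESC, and after pladienolide B 0.47, 0.87, 1.28, 0.80 and 0.19 for Snrnp70, Snrpa, Snrpc, Luc7l2 and Tial1 (log2). Median-ratio scaling gave 0.071 for Snrpc in heart, 0.54 and 0.22 for Luc7l2 and Tial1 in liver, -0.29, -0.15, -0.27 and -0.43 for Luc7l2, Luc7l3, Tia1 and Tial1 in ESC, and after pladienolide B 0.041, 0.45, 0.85 and 0.37 for Snrnp70, Snrpa, Snrpc and Luc7l2. For exons between tissues, limma called 5 events in place of 12 (lost were 5 of Luc7l2, 1 of Luc7l3 and 1 of Tia1), and leaving out a library left 9 to 18. After pladienolide B, a minimum of 50 reads called 5 exon events in place of 8, the 3 others having fewer reads in a library, and leaving out a library left 0 to 2; for introns, limma and a prior without depth trend each called 1 in place of 2, and leaving out a library left 1 to 2. Why limma differed was not tested. Leaving out a library of a 2-library allelic comparison leaves a difference with no test.

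With the replicate number as a block, which the data do not show to pair the libraries, 0 exon events and 1 intron were called after pladienolide B, the adjusted p of Snrpc was 0.0518, and 13 exon events were called between tissues. The block of both alleles of a library, which is a true pairing, left 0 allelic calls, as without it. Some of the larger allelic differences rest on few reads, as 20 to 29 for the 101-bp exon of Luc7l2 after DMSO, while well covered events such as its 30-bp exon there (347 to 465 reads) were not called either.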
